A study of Mus musculus with 12 samples.

Results

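The 6 WT inguinal WAT pads of the series were ordered by their own *Ucp1* signal, and the 3 highest were set against the 3 lowest. *Ucp1* encodes the uncoupling protein of brown and brown-like (beige) adipocytes, so the split asks which genes follow the natural spread of beige fat among normal pads. The pads were chosen by *Ucp1* itself, and no other measure entered the choice. The split therefore holds 3 *Ucp1*-high and 3 *Ucp1*-low pads, which together are 6 of the 12 arrays. The other 6 arrays came from R6/2 mice, a model of Huntington's disease with a transgene for the first exon of human huntingtin and its lengthened CAG repeat, and they served only as pads that the split had not used. All mice were untreated males of 12 weeks, the WT mice were littermates of the R6/2 mice on a C57BL/6 background, and each mouse gave 1 array of total RNA from frozen inguinal fat. Values are log2 signals from RMA, so that 1 unit of difference stands for 2 times. The median signal of the arrays over all probe sets lay between 5.75 and 5.87, and no 2 arrays held the same values.

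Beige adipocytes lie scattered among the white adipocytes of the inguinal pad and turn on when sympathetic nerves release noradrenaline, which acts through cAMP. Their *Ucp1* lets protons back across the inner mitochondrial membrane without making ATP, so that fuel is burnt for heat, and they carry many mitochondria. The inguinal pad also holds a lymph node and lies against skeletal muscle, so a dissected pad may carry either tissue. RNA of a whole pad cannot tell fewer cells of a type apart from less RNA per cell, and this holds for every level below.

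The *Ucp1* signals that set the order were 11.62 in WT 1, 10.88 in WT 5 and 10.06 in WT 4, the *Ucp1*-high pads, and 9.78 in WT 6, 8.80 in WT 3 and 8.70 in WT 2, the *Ucp1*-low pads. The means were 10.85 ± 0.78 in the *Ucp1*-high pads and 9.09 ± 0.60 in the *Ucp1*-low pads (SD, n = 3 each), a difference of 1.76 on the log2 scale or 3.38 times. The spread from the first to the last pad was 7.55 times. The order was clear at both ends and close in the middle, where WT 4 lay just inside the *Ucp1*-high pads and WT 6 just outside, 0.28 apart. The 3 markers together gave another middle: by the mean of *Ucp1*, *Elovl3* and *Cidea*, WT 6 (9.47) stood above WT 4 (9.43), with the other pads on the same sides.

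The start regions of 5 genes are shown because they stand for the 3 gene groups met below: the uncoupling protein and a brown fat cytochrome oxidase subunit, a muscle calcium pump and actin, and a protease of antigen-presenting cells. They were read from RefSeq promoters of GRCm38.p6, 250 bases before to 50 after the start, in the direction of the gene. *Ucp1* lies at chr8:83290098-83290397 (plus strand), *Cox8b* at chr7:140900397-140900696 (minus strand), *Atp2a1* at chr7:126463024-126463323 (minus strand), *Acta1* at chr8:123894726-123895025 (minus strand) and *Ctss* at chr3:95526536-95526835 (plus strand). In all 5, capitals mark each match, on either strand, to 4 motifs: TGACG, the core of the cAMP response element, then AGGTCA, the half-site of nuclear receptors such as the PPARs, then CAGCTG, an E-box that the myogenic factors bind, and GAGGAA, a core that PU.1 of myeloid and B cells binds.
Ucp1: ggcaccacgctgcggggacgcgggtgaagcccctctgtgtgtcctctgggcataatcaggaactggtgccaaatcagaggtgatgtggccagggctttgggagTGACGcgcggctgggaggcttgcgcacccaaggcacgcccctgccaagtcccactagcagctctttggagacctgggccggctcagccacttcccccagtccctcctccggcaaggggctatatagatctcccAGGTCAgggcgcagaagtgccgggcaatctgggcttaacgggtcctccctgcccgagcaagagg
Cox8b: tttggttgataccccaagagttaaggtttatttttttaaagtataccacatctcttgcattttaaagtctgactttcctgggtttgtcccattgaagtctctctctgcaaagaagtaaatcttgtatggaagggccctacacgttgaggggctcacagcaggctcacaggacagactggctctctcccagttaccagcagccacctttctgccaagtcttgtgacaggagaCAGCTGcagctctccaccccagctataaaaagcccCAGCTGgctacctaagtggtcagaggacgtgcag
Atp2a1: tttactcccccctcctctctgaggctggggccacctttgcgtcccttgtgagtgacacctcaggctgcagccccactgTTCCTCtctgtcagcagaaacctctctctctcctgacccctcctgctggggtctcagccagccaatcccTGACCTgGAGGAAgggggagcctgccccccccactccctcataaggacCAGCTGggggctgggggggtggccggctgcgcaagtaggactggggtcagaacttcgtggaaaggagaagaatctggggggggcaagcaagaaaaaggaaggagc
Acta1: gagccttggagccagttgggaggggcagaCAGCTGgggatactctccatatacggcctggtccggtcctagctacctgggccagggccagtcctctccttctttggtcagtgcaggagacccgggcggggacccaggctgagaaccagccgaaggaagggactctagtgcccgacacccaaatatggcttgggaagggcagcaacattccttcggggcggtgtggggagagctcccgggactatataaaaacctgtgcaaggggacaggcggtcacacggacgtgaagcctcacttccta
Ctss: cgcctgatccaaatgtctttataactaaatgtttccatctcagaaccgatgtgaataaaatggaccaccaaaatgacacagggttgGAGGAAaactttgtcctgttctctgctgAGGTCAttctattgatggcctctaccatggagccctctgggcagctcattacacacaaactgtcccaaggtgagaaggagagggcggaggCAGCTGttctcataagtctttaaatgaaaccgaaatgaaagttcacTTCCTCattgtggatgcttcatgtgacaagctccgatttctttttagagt
Both strands were searched in all 27025 promoters of this length, CAGCTG reads the same on both, and no match of one motif overlapped another in these 5. The E-box stood in 16.1% of all promoters, TGACG in 21%, AGGTCA in 16% and GAGGAA in 28.3%. *Ucp1* held 1 TGACG and 1 AGGTCA, *Cox8b* 2 E-boxes and *Acta1* 1 E-box. *Atp2a1* and *Ctss* each held 1 AGGTCA, 1 E-box and 2 GAGGAA, so the same motifs stood in a muscle and in an antigen-presenting cell gene. A match is a run of letters and not a shown binding site.

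Apart from *Ucp1*, 2 brown fat genes were at least 2 times higher in the *Ucp1*-high pads without overlap, *Elovl3* and *Cox8b*. *Elovl3*, an elongase that makes very long chain fatty acids in brown fat, was at 8.72, 8.07 and 7.21 in WT 1, WT 5 and WT 4, against 7.21, 4.51 and 5.65 in WT 6, WT 3 and WT 2. Its difference was 2.21, and WT 4 and WT 6 were only 0.0016 apart. *Cox8b*, a cytochrome c oxidase subunit shared by brown fat, heart and muscle, was at 10.34, 10.57 and 10.28 in the *Ucp1*-high pads, against 10.06, 8.93 and 9.09 in the *Ucp1*-low pads, a difference of 1.04. *Cidea*, a lipid droplet protein of thermogenic adipocytes, did not separate the pads: it was at 11.55, 11.64 and 10.997 in the *Ucp1*-high pads, against 11.41, 10.22 and 10.02 in the *Ucp1*-low pads, and WT 6 stood above WT 4. In all 3 genes WT 3 and WT 2 were lowest, and WT 6 stood nearer to the *Ucp1*-high pads than to them.

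**Figure D1:**
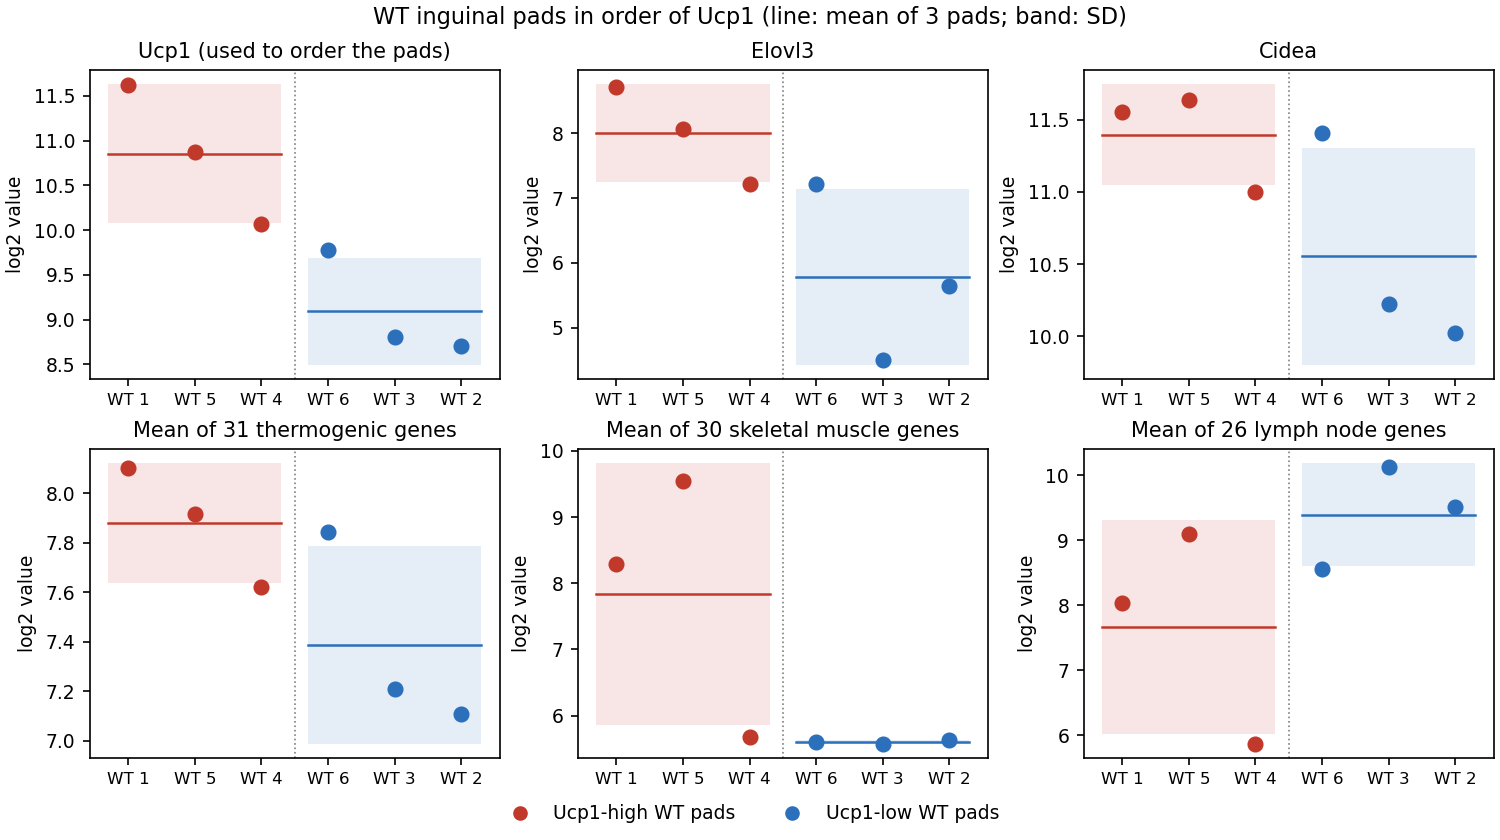
Log2 values of *Ucp1*, *Elovl3* and *Cidea* and of the means of 3 gene lists (y axes) in the 6 WT pads in the order of *Ucp1* (x axes), with the *Ucp1*-high pads on the left; each point is 1 pad, lines are means of 3 pads and bands 1 SD. The muscle mean is high in WT 1 and WT 5 alone (8.29 and 9.54), and the lymph node mean is lowest in WT 4 (5.87).

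The wider thermogenic list was higher in most of its members. Of 31 measured members other than *Ucp1*, 27 had a positive difference, with a median of 0.49 beside 0.02 over all 14549 genes, and the list mean was 8.10, 7.91 and 7.62 in WT 1, WT 5 and WT 4, against 7.84, 7.21 and 7.11 in WT 6, WT 3 and WT 2. Without overlap were 6 members, all higher in the *Ucp1*-high pads: beside *Elovl3* and *Cox8b* these were *S100b* (0.57), *Kng2* (0.55), *Letmd1* (0.51), a mitochondrial inner membrane protein, and *Ebf2*, a transcription factor of brown preadipocytes. That is 19.4% of the list, against 11.1% of all genes that were higher and 6.9% that were lower without overlap at any size. The pair in the middle decided this count. With WT 6 left out, 24 of the 31 members separated (23.4% of all genes), and with WT 4 left out 14 did (13.8%). *Ppargc1a*, the coactivator that drives mitochondrial biogenesis, was at 7.89, 7.78 and 7.42 in the *Ucp1*-high pads, against 7.46, 7.13 and 6.999 in the *Ucp1*-low pads. It overlapped, with WT 4 below WT 6. Over the R6/2 pads it went with the mean of skeletal muscle genes at r = 0.92 and with the thermogenic mean at 0.76. Of other members, *Dio2* differed by only 0.03, and *Slc27a2* (-0.27) was among the 4 with a negative difference. Of 9 beige-selective genes (median 0.42), *Hoxc9* was higher without overlap (0.47) and *Tmem26*, a surface marker of beige adipocytes, was lower (-0.42), 11.1% in each direction. *Tmem26* was at 7.56 in WT 3 but at 6.74 and 6.72 in WT 6 and WT 2, and its gap was only 0.016. Over the R6/2 pads *Tmem26* went with the mean of lymph node genes at r = 0.97, and *Hoxc9* at -0.91.

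Across all genes, 50 were at least 2 times higher in the *Ucp1*-high pads with no overlap (0.344% of 14549), and 30 were at least 2 times lower (0.206%). These counts describe a split that was selected on *Ucp1* of the same arrays and carry no test. At the edge of the size limit, *Cycs* (1.003) and *Fdps* (1.001) lay just inside and *Alb* (0.997) and *Chchd10* (0.987) just outside among the higher genes. Among the lower genes *Arhgap25* (-1.04) lay inside and *Prf1* (-0.99) outside. The full order of the 6 pads was followed by 37 genes and its reverse by 18, and among the 80 genes of the 2 sets only *B430010I23Rik* kept it (7.29, 7.21 and 6.79 in the *Ucp1*-high pads, against 6.52, 6.04 and 5.39 in the *Ucp1*-low pads). The counts moved with single pads. Without WT 2, WT 4, WT 5 and WT 6 there were 77, 110, 78 and 135 higher genes, and without WT 5 and WT 6 there were 489 and 478 lower ones. Fewer pads separate more easily by construction. When the pads were ranked by the 3 markers, so that WT 6 and WT 4 changed sides, 24 genes were higher and 2 lower, and 0 of these were among the 50 and 30.

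To see which of the 80 genes go with muscle or lymph node, each was set beside 3 list means over the 6 R6/2 pads, which the split had not used, and named after the mean with the largest absolute correlation if that reached 0.8. The 3 means were those of the thermogenic list, of 30 skeletal muscle genes and of 26 lymph node genes, and the gene itself was left out. Over 6 pads this is a description of likeness, and the means share pads with each other: over these pads the thermogenic and muscle means went together at r = 0.73. Hence 7 of the muscle-like genes named next, *Lmod3* and *Ckmt2* among them, and 2 thermogenic-like ones, *Cox8b* and *Fdps*, reached 0.8 with both means. The share of all genes that reaches 0.8 with each mean was not counted, so the shares given next have no background to be read against. Of the 50 higher genes, 31 (62%) were nearest to muscle, 8 to the thermogenic mean, 5 ran against the lymph node mean and 6 were near none. Of the 30 lower genes, 28 (93.3%) were nearest to the lymph node, *Sp100* ran against the thermogenic mean and *Gm20559* was near none. A macrophage mean was not among the 3, so the name lymph node does not separate lymph node from macrophage genes. The 28 include *Ctss*, *Mpeg1* and *Cd84* of the macrophage list. In the WT pads *Ctss* was higher in WT 4 (10.15) than in WT 1 (9.48), while the lymph node mean was lower in WT 4 (5.87 and 8.03). With all 12 arrays centred by genotype, 30 and 27 kept the muscle and lymph node names, but only 4 the thermogenic one. Those 12 arrays include the WT pads that chose the 80 genes, so this is not an independent check of the names.

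**Figure D2:**
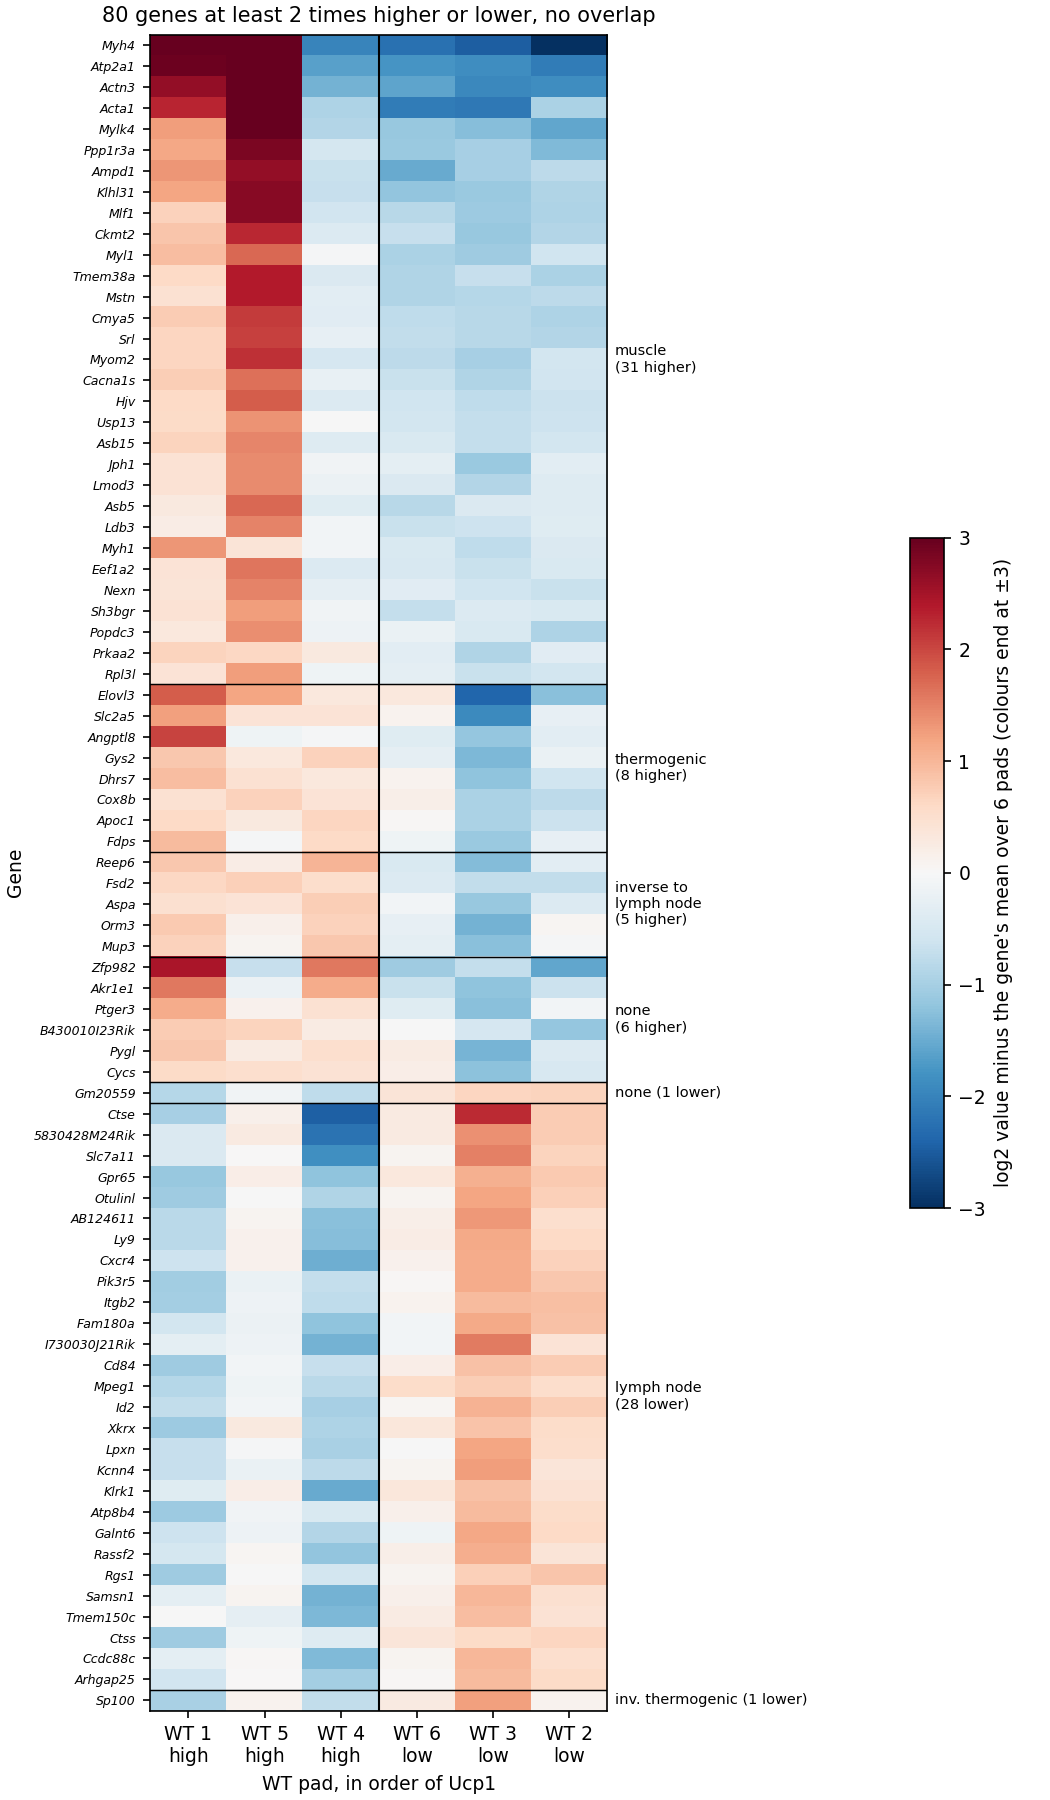
Log2 value of each of the 80 genes minus its mean over 6 WT pads (colour), for genes down the page and pads in the order of *Ucp1* across it, grouped by the list mean each was nearest to in R6/2 pads. The 31 muscle-like genes are highest in WT 1 and WT 5, and the 28 lymph-node-like genes lowest in WT 4 or WT 1.

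The largest differences of the whole split were in genes of fast skeletal muscle. *Myh4*, the fast myosin heavy chain of type IIb fibres, was at 11.51, 12.91 and 5.26 in WT 1, WT 5 and WT 4, against 4.99, 4.76 and 3.99 in WT 6, WT 3 and WT 2, a difference of 5.32. *Atp2a1*, the calcium pump of the fast-twitch sarcoplasmic reticulum, was at 10.30, 11.78 and 5.74 in the *Ucp1*-high pads, against 5.57, 5.49 and 5.25 in the *Ucp1*-low pads (3.83). In both genes WT 4 sat with the *Ucp1*-low pads and cleared them by a small margin. The WT 4 and *Ucp1*-low values of *Myh4* all lay under 5.45, the WT limit of the level filter. So did those of *Mylk4*, *Ppp1r3a*, *Mlf1* and *Ckmt2* below. In these genes the lack of overlap rests on differences between signals under that limit. *Actn3*, the α-actinin of fast fibres (3.57), and *Acta1*, skeletal α-actin (3.45), showed the same 2 high pads. The remaining muscle-like genes among the 12 largest were *Mylk4*, *Ppp1r3a*, the glycogen-targeting subunit of a muscle phosphatase, *Ampd1*, muscle AMP deaminase, *Klhl31*, *Mlf1* and *Ckmt2*, the sarcomeric mitochondrial creatine kinase, with differences between 1.80 and 2.64.

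All 30 genes of the muscle list had a positive difference, with a median of 2.43, and the list mean was 8.29 in WT 1, 9.54 in WT 5 and 5.68 in WT 4, against 5.61, 5.58 and 5.63 in the *Ucp1*-low pads. So 2 of the 3 *Ucp1*-high pads held muscle transcripts and the third lay beside the *Ucp1*-low pads. Members without overlap were 8 of 30 (26.7%, beside 11.1% of all genes), and the rest overlapped. Against the mean of the *Ucp1*-low pads, the 31 muscle-like genes were higher by a median of 2.15 in WT 1 and WT 5 and of 0.43 in WT 4, and none reached 1 in WT 4. Of the 8 thermogenic-like genes 5 reached 1 in WT 4, with a median of 1.09. This was not particular to them: all 5 genes that ran against the lymph node mean reached 1 (median 1.28), and 4 of the 6 near none did (median 1.02). The muscle level was thus high in 2 of the 3 *Ucp1*-high pads, and its part in the differences of genes that brown fat and muscle share was not tested. Of 13 such shared genes, *Cox8b*, *Ckmt2* and *Eef1a2* were higher without overlap (23.1%, beside 11.1% of all genes). *Ckmt2* was at 6.20, 7.63 and 4.94 in WT 1, WT 5 and WT 4, against 4.67, 4.21 and 4.49 in the *Ucp1*-low pads, with WT 1 and WT 5 high as in the muscle list. *Cox8b* was highest in WT 5 as well, with the 3 *Ucp1*-high pads close together (10.34, 10.57 and 10.28). *Cox7a1*, another of the 13, had a larger difference (1.45) but overlapped. It was at 9.67, 9.58 and 8.53 in WT 1, WT 5 and WT 4, against 8.67, 7.55 and 7.19 in WT 6, WT 3 and WT 2.

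**Figure D3:**
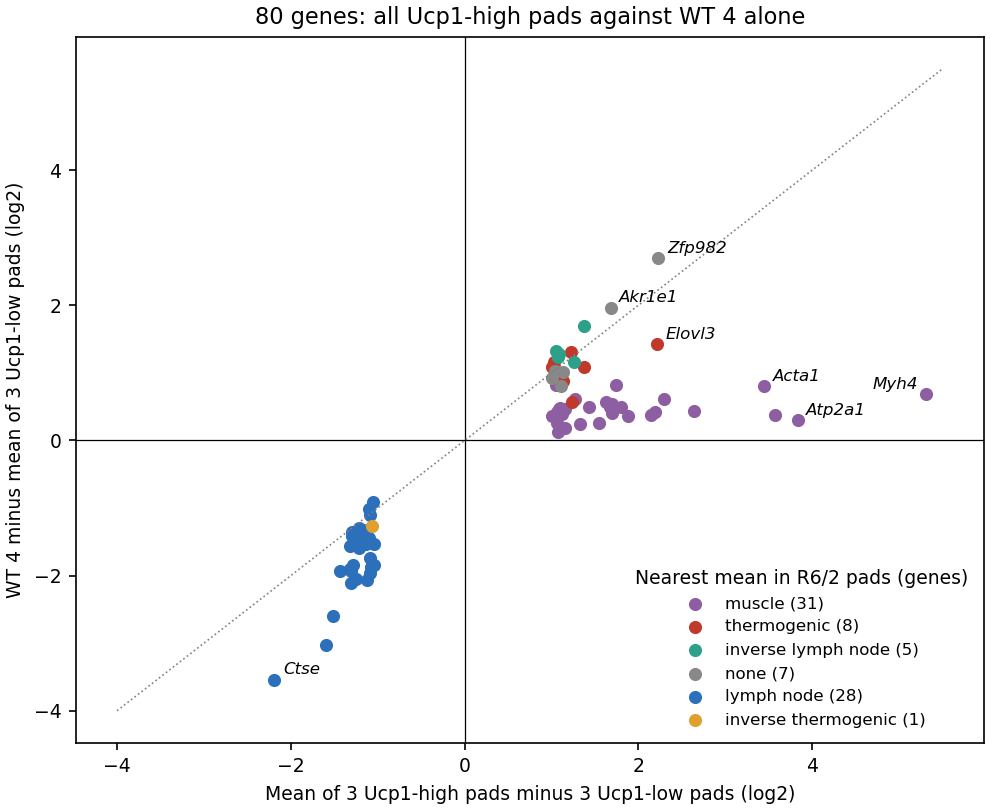
Difference of each of the 80 genes between all *Ucp1*-high and *Ucp1*-low pads (x axis, log2) against the difference of WT 4 alone from the mean of the *Ucp1*-low pads (y axis, log2); each point is 1 gene, coloured by the list mean it was nearest to in R6/2 pads, and the dotted line marks equal values. Muscle-like genes lie between 0.13 and 0.82 on the y axis whatever their value on the x axis, and lymph-node-like genes between -3.54 and -0.91.

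E-boxes of the letters CAGCTG stood in 12 of the 21 promoters found for the 31 muscle-like genes (57.1%), beside 16.1% of all promoters, in 3 of the 4 found for the thermogenic-like genes and in 4 of 22 for the lymph-node-like genes (18.2%). Of the 80 genes, 58 had a promoter in the table.

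The thermogenic-like genes beside *Elovl3* and *Cox8b* were *Slc2a5*, a fructose transporter (1.37), *Angptl8*, a secreted regulator of lipoprotein lipase (1.23), *Gys2*, the liver form of glycogen synthase (1.22), *Dhrs7* (1.13), *Apoc1*, an apolipoprotein (1.03), and *Fdps*, farnesyl diphosphate synthase of sterol synthesis (1.00). In *Gys2* the values were 10.47, 9.98 and 10.36 in WT 1, WT 5 and WT 4, against 9.40, 8.30 and 9.45 in WT 6, WT 3 and WT 2, and WT 3 was the lowest pad in all 8 thermogenic-like genes. Genes near none of the means included *Ptger3*, a prostaglandin E2 receptor (1.14), *Pygl*, a glycogen phosphorylase (1.04), *Cycs*, cytochrome c (1.00), and *Akr1e1*, an aldo-keto reductase. The 5 that ran against the lymph node mean were *Reep6* (1.37), *Fsd2*, *Aspa*, an enzyme that frees acetate (1.09), and *Orm3* and *Mup3*, which belong to families of near-identical genes whose probes may read several members. *Zfp982*, a zinc finger gene, was at 7.79, 4.64 and 6.91 in WT 1, WT 5 and WT 4, against 4.27, 4.61 and 3.76 in the *Ucp1*-low pads (2.23). Here WT 1 and WT 4 were high and WT 5 level with the *Ucp1*-low pads, which is neither the muscle nor the *Elovl3* pattern. The WT 5 and *Ucp1*-low values of *Zfp982* all lay under 5.45, the WT limit of the level filter. Its lack of overlap rests on a gap of 0.025 between signals under that limit. In *Akr1e1* (8.29, 6.53 and 7.84 in the *Ucp1*-high pads, against 6.05, 5.51 and 6.06 in the *Ucp1*-low pads) WT 1 and WT 4 were again the highest, and WT 5 stood between them and the *Ucp1*-low pads.

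Of the 30 genes lower in the *Ucp1*-high pads, 3 belonged to the macrophage list and 0 to the lymph node list. *Ctse*, the protease cathepsin E, was at 7.58, 8.73 and 6.14 in WT 1, WT 5 and WT 4, against 8.86, 10.81 and 9.35 in WT 6, WT 3 and WT 2, a difference of -2.19. *Slc7a11*, the cystine transporter, differed by -1.51, *Gpr65*, a proton-sensing receptor of leukocytes, by -1.44, *Ly9*, a lymphocyte surface receptor, by -1.31, *Cxcr4*, the receptor that homes lymphocytes, by -1.30, and *Itgb2*, the β2 integrin chain, by -1.29. The others of the 12 largest, between -1.25 and -1.60, were *5830428M24Rik*, *Otulinl*, *AB124611*, *Pik3r5*, *Fam180a* and *I730030J21Rik*. The groups were separated narrowly in several: in *Cxcr4* WT 5 lay 0.0045 below WT 6.

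The lymph node list overlapped throughout. All 26 measured members were lower on average in the *Ucp1*-high pads, with a median of -1.76. However, 0 were free of overlap, beside 6.9% of all genes that lay below without it. The list mean was 8.03 in WT 1, 9.10 in WT 5 and 5.87 in WT 4, against 8.55 in WT 6, 10.12 in WT 3 and 9.51 in WT 2. *Cd79a*, a chain of the B cell receptor complex, was at 10.14, 10.94 and 6.24 in WT 1, WT 5 and WT 4, against 10.51, 11.98 and 11.33 in the *Ucp1*-low pads. The *Ucp1*-high pads thus included the pad with by far the lowest lymph node signal, while WT 1 lay below the *Ucp1*-low pads and WT 5 among them. Of the 30 lower genes, 29 were at least 1 below the mean of the *Ucp1*-low pads in WT 4, and 15 were so in the mean of WT 1 and WT 5. The lymph node signal did not split the pads as *Ucp1* did: over the 6 WT pads its mean went with *Ucp1* at r = -0.43. Over the same pads *Ucp1* went with the muscle mean at 0.80, the mature adipocyte mean at 0.63 and the thermogenic mean at 0.94. The lymph node signal was lowest in WT 4, the *Ucp1*-high pad with the lowest *Ucp1*. The parts of *Ucp1* and of the lymph node signal in the 30 lower genes cannot be told apart in 6 pads.

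Macrophage genes were lower as well. Of 25 measured, 22 had a negative difference (median -0.49), and 8 lay below without overlap (32%, beside 6.9% of all genes). *Ctss*, cathepsin S of antigen-presenting cells, was at 9.48, 10.40 and 10.15 in the *Ucp1*-high pads, against 10.90, 11.11 and 11.18 in the *Ucp1*-low pads. *Mpeg1*, the pore-forming perforin-2 of macrophages, was at 7.95, 8.68 and 7.996 in the *Ucp1*-high pads, against 9.37, 9.55 and 9.34 in the *Ucp1*-low pads, and left a gap of 0.66. *Cd84* (-1.22) and *Lyz2*, the macrophage lysozyme (-0.78), did not overlap either. The list mean was 7.54, 7.86 and 8.07 in WT 1, WT 5 and WT 4, against 8.37, 8.16 and 8.39 in WT 6, WT 3 and WT 2, without overlap. Against the *Ucp1*-low mean, however, the median of the list was -0.03 in WT 4. The letters GAGGAA stood in 12 of 22 promoters found for the 28 lymph-node-like genes (54.5%), beside 28.3% of all promoters, and in 6 of 21 for the muscle-like genes (28.6%).

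Oxidative genes were higher by small amounts in many members at once. Of 66 respiratory chain genes, 62 had a positive difference, with a median of 0.49, and 34 were higher without overlap (51.5%, beside 11.1% of all genes). The count was 17 after quantile normalization (9.88% of all genes), 19 when the pads were ranked by the 3 markers (3.4%) and 60 without WT 6 (23.4%). Of the 34 only *Cycs* reached 2 times. *Ndufb6* of complex I was at 8.80, 8.57 and 8.38 in the *Ucp1*-high pads, against 8.35, 7.55 and 7.93 in the *Ucp1*-low pads, and *Ndufv2*, another complex I subunit, differed by 0.64. *Atp5k* of the ATP synthase differed by 0.71. In each of them WT 6 was close under WT 4 and WT 3 was lowest.

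Of 18 TCA cycle genes 9 were higher without overlap (50%, median 0.58), beside 11.1% of all genes and a median of 0.02 over all genes. *Suclg1*, a succinyl-CoA ligase subunit, was at 9.52, 9.37 and 9.35 in the *Ucp1*-high pads, against 8.96, 8.44 and 8.56 in the *Ucp1*-low pads. *Idh3a*, an isocitrate dehydrogenase subunit, differed by 0.68. Of 27 fatty acid oxidation genes 7 were higher without overlap (25.9%, beside the same 11.1%, median 0.46). They were led by *Acadl*, the long-chain acyl-CoA dehydrogenase (0.70), and *Etfdh* and *Cpt2*, the inner carnitine palmitoyltransferase (0.52 each). Lipogenesis genes were higher as well, with all 22 positive, a median of 0.65 and 5 higher without overlap (22.7%, beside the same 11.1%). Among the 5 were *Me1*, the NADPH-making malic enzyme (0.85), and *Lpin1* (0.67) and *Agpat2* (0.62), which act in triglyceride synthesis.

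**Figure D4:**
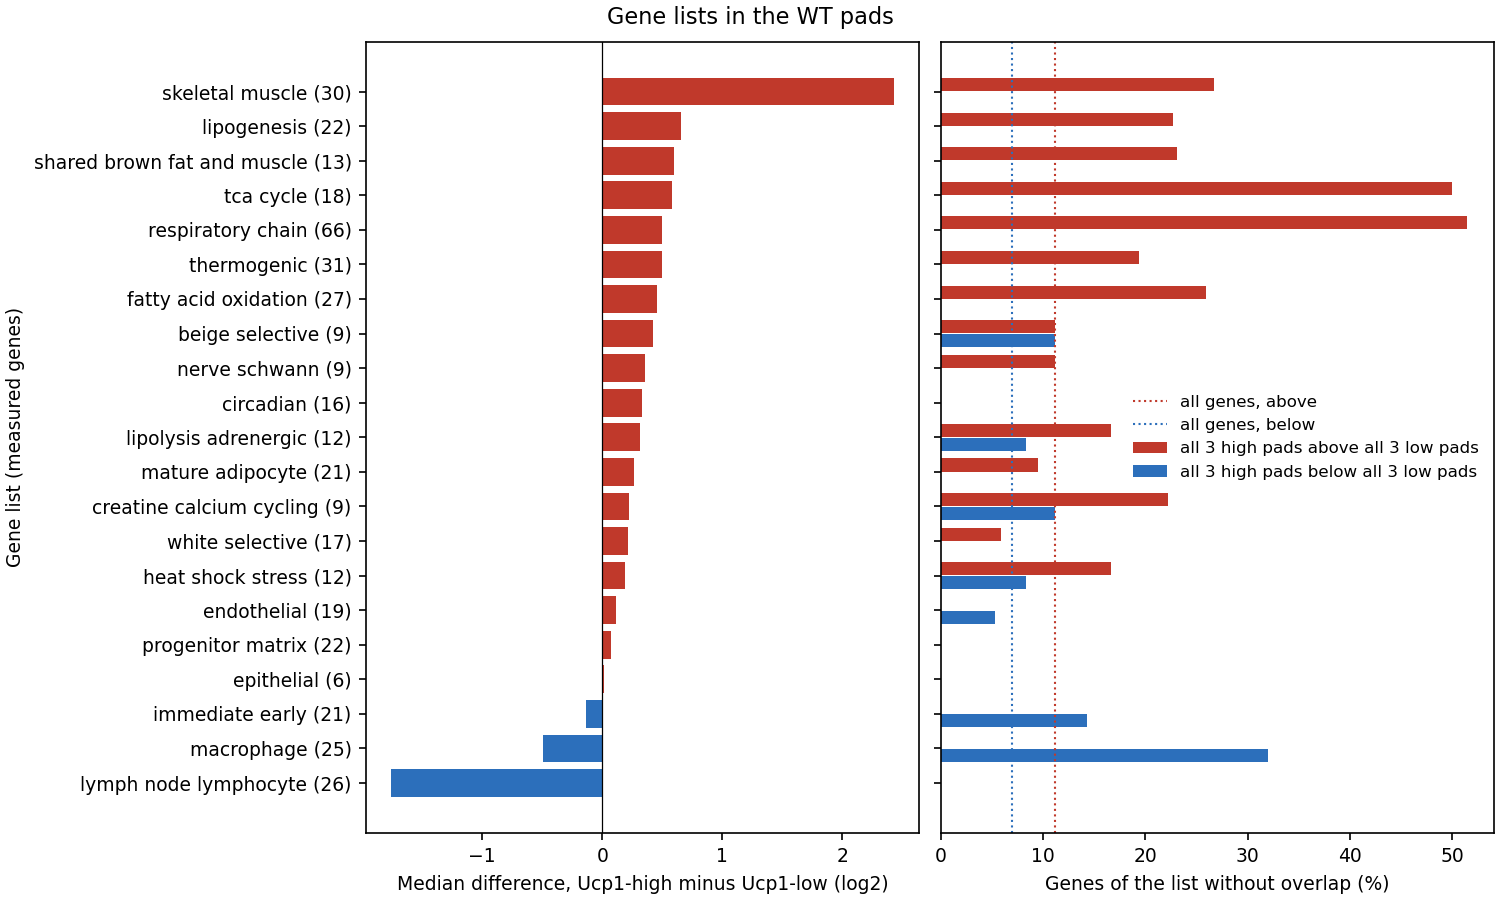
Median difference of each gene list between *Ucp1*-high and *Ucp1*-low WT pads (left, log2) and share of its measured genes without overlap in either direction (right, %), with the shares over all genes as dotted lines (11.1% above, 6.9% below). Respiratory chain and TCA cycle genes have the largest shares above, macrophage genes the largest share below.

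Mature adipocyte genes were slightly higher in the *Ucp1*-high pads, with overlap. Their mean was 11.43, 11.28 and 11.54 in WT 1, WT 5 and WT 4, against 11.32, 10.61 and 11.18 in WT 6, WT 3 and WT 2, and WT 3 was lowest. All 21 of its genes had a positive difference (median 0.26), with *Slc2a4*, the insulin-responsive glucose transporter (0.89), and *Dgat2*, which makes triglyceride (0.56), free of overlap, which is 9.52% of the list and near the 11.1% of all genes. After the mature adipocyte mean was subtracted from each pad, which lowers the difference of every gene by the same amount, the median of all genes stood at -0.36, 2 of 66 respiratory chain genes and 1 of 31 thermogenic genes were higher without overlap (0.811% of all genes), and 2 genes stayed at least 2 times higher. The part of the adipocyte share in these differences was not tested.

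The remaining lists had few members without overlap, beside 11.1% of all genes above and 6.9% below. Lipolysis and adrenergic genes had 11 of 12 positive (median 0.31), with *Mgll*, monoglyceride lipase (0.39), and *Gnas* (0.10) higher without overlap (16.7%) and *Prkar1a* (-0.08) lower (8.33%). Of 9 nerve and Schwann cell genes 8 were positive (median 0.36) and *S100b* alone was free of overlap (11.1%). Genes of creatine and calcium cycling had a median of 0.22, with *Ckmt2* and *Gatm*, which makes the creatine precursor (0.50), higher (22.2%) and *Ryr2* (-0.22) lower of 9. Immediate early genes, which react to handling, had a median of -0.14, with *Myc* (-0.65), *Egr3* (-0.64) and *Zfp36* (-0.42) lower of 21 (14.3%) and 0 higher. Heat shock genes had a median of 0.19, with *Hspd1* (0.53) and *Hsph1* (0.27) higher (16.7%) and *Trib3* (-0.20) lower of 12. Circadian genes had 11 of 16 positive (median 0.33) and 0 without overlap. White-selective genes had 1 of 17 higher, *Hoxc10* (0.59, 5.88% of the list, median 0.22), progenitor and matrix genes 0 of 22 (median 0.07), and endothelial genes 1 of 19 lower, *Pecam1* (-0.39, 5.26%, median 0.11). Epithelial markers, which would show mammary tissue, had 0 of 6 in either direction.

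Whether the same genes follow *Ucp1* elsewhere was tested in the 6 R6/2 pads. *Ucp1* there was 12.35, 11.41, 12.55, 8.44, 11.47 and 12.61 in replicates 1 to 6, so that 5 pads lay close together and replicate 4 far below. *Elovl3* was at 10.02, 8.36, 10.96, 7.15, 8.54 and 10.34 in the same pads and went with *Ucp1*, with Pearson's r = 0.90 (exact permutation p = 0.00833, two-sided, 0.0167 adjusted over 2 relations, n = 6) and Spearman's rho = 0.94 (exact permutation p = 0.0167, adjusted 0.0333). *Cidea* was at 11.77, 11.22, 12.22, 10.78, 11.02 and 11.77, with r = 0.82 (exact permutation p = 0.0194, adjusted 0.0194, n = 6) and rho = 0.89 (exact permutation p = 0.0333, adjusted 0.0333). Without replicates 4 and 6, the pads farthest from the median of *Ucp1*, r was 0.98 for *Elovl3* and 0.96 for *Cidea* (exact permutation p = 0.0833 and 0.167, of which the first is the smallest that 4 pads allow). The muscle mean was 6.82, 5.57, 10.15, 7.26, 7.80 and 9.42 in these pads and the lymph node mean 9.52, 9.72, 5.72, 5.88, 9.90 and 9.56, so the lymph node signal was lowest in replicates 3 and 4, which lay near the top and at the bottom of *Ucp1*.

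**Figure D5:**
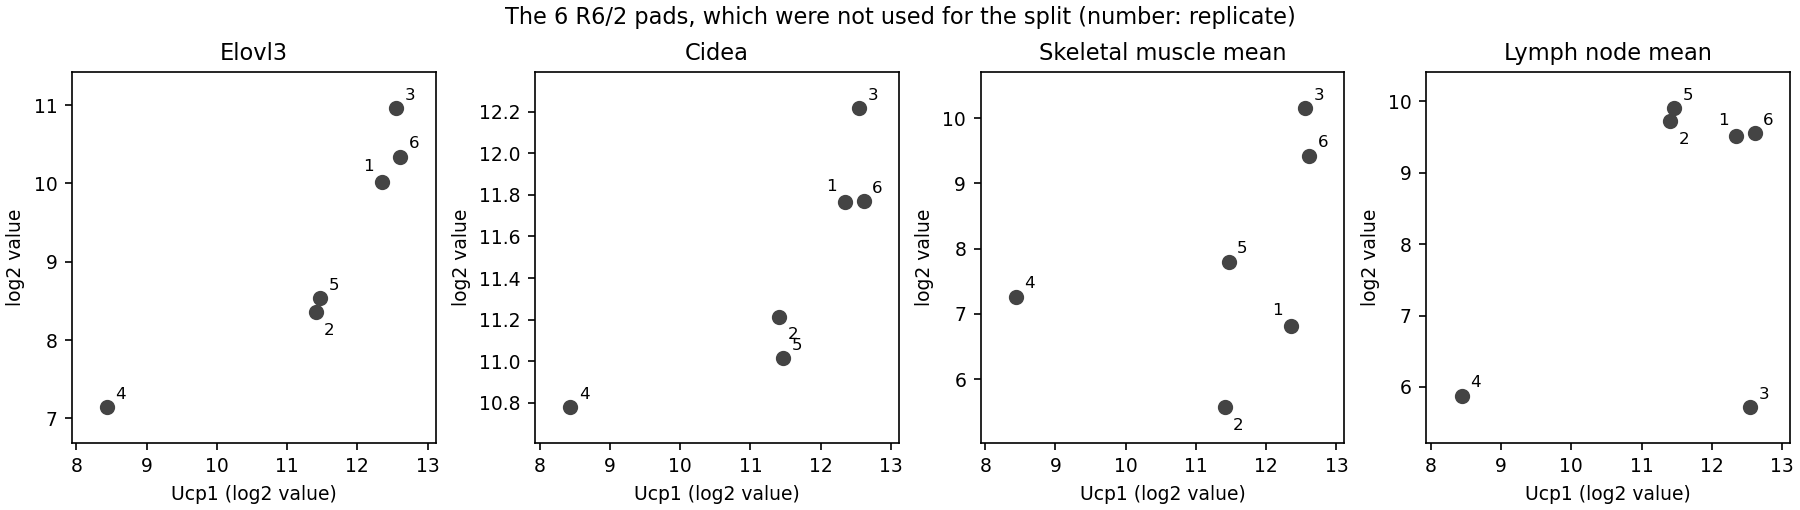
Log2 values of *Elovl3* and *Cidea* and of the muscle and lymph node list means (y axes) against *Ucp1* (x axes, log2) in the 6 R6/2 pads, which were not used for the split; each point is 1 pad with its replicate number. *Elovl3* and *Cidea* climb with *Ucp1*, while the lymph node mean is low in replicates 3 and 4 alone.

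Over all genes, limma's slope on *Ucp1* in the R6/2 pads called 0 of 14549 genes higher (0%) and 0 lower (0%) at an adjusted p of 0.05, and 0 with a variance trend and robust estimation. At an unadjusted p of 0.05, 364 genes had a positive slope (2.5%) and 1025 a negative one (7.05%). Hence none of the 50 or 30 genes of the WT split passed. *Zfp982* had a slope of 0.77 ± 0.15 (SE) per log2 unit of *Ucp1* (limma adjusted p = 0.306), *Elovl3* of 0.82 ± 0.17 (limma adjusted p = 0.32), *Cox8b* of 0.27 ± 0.105 and *Dhrs7* of 0.23 ± 0.08. These 4 were the genes of the 50 with an unadjusted p under 0.05, and of the 30 lower genes 0 were.

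The groups had been named from these same R6/2 pads, where *Ucp1* went with the lymph node mean at r = 0.44, the muscle mean at 0.40 and the thermogenic mean at 0.73, so the direction of most slopes was set by the naming and adds nothing to it. Of the 50 higher genes 45 had a positive slope, beside 50.3% of all genes, and the 5 with a negative one were those that ran against the lymph node, *Reep6*, *Fsd2*, *Aspa*, *Orm3* and *Mup3*. Of the 30 lower genes only 2, *Sp100* and *Gm20559*, had a negative slope, and the 28 lymph-node-like genes all had a positive one. Without replicate 4, all 30 had a negative slope. Genes of a group vary together, so these counts are not independent.

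The genes with the smallest p of the R6/2 fit were mostly other genes. Those with a positive slope were led by *Letmd1* (0.35 ± 0.06 SE, limma adjusted p = 0.305) and *Got2*, the mitochondrial aspartate aminotransferase, and also held *Acsl5*, an acyl-CoA synthetase, *Aldh1b1*, *Kpna2*, *Cabcoco1*, *Zfp874a*, *Ptp4a3*, *Usp28* and *Septin9*. Only *Letmd1* of them was higher without overlap in the WT pads, while *Aldh1b1* was lower (-0.30). Those with a negative slope were *Fhl5* (-0.58 ± 0.05 SE, limma adjusted p = 0.17), *Ifi207*, *Ifi205*, *Mall*, *Bmp3*, *Tlr8*, *Prr32*, *Papss2*, *Atp6v0d2* and *Zfpm2*. Their WT differences lay between -1.15 and 0.35, all with overlap.

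With the lymph node mean as a covariate, limma called 270 genes with a positive (1.86%) and 299 with a negative slope (2.06%) on *Ucp1* in the R6/2 pads. Among them were 7 of the 50 genes, *Elovl3* (1.00 ± 0.08 SE, limma adjusted p = 0.0139), *Zfp982* (0.84 ± 0.15), *Lmod3*, *Cox8b* (0.38 ± 0.05), *Dhrs7*, *Fdps* and *Apoc1*, and 3 of the 30, *Gpr65* (-0.30 ± 0.05), *Mpeg1* (-0.23 ± 0.04) and *Ctss* (-0.18 ± 0.03). Of the thermogenic list 15 of 31 were called higher, *Cidea* included (0.37 ± 0.04, limma adjusted p = 0.0203), of the respiratory chain 24 of 66, of fatty acid oxidation 8 of 27, of the TCA cycle 6 of 18 and of lipogenesis 4 of 22. Of the muscle list 0 of 30 were called at this adjusted p by limma, and 0 had an unadjusted p under 0.05 in the fit without a covariate. The lack of calls does not show an absence of slope. All 30 muscle slopes were positive without the covariate. Their median was 0.44 without and 0.82 with it, beside 0.19 and 0.26 for the thermogenic list. The SE could be large, as in *Atp2a1* with the covariate (0.86 ± 0.45). Of the macrophage list 6 of 25 were called lower and of the white-selective list 4 of 17. These calls rested on replicates 3 and 4, the pads with the lowest lymph node signal: without either of them 0 genes were called in each direction, and without replicate 2, 8 and 11 were. Replicates 1 and 5 moved the counts too, to 96 and 71 and to 88 and 89 genes, while without replicate 6 there were 200 and 206. With the muscle mean as a second covariate 2 genes were called with a positive and 1 with a negative slope.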

How the data were processed

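Inguinal WAT of 6 WT and 6 R6/2 mice was hybridised to Affymetrix Mouse Gene 2.0 ST arrays, 1 per mouse. The authors ran RMA over the 12 arrays in Affymetrix Expression Console 1.1.2, which gave the deposited log2 signals, neither filtered nor centred. The number of arrays limits the precision. Of 41345 probe sets, 23521 had 1 gene symbol in the platform annotation, 1820 several and 16004 none. Probe sets of 1 symbol were kept where their mean exceeded the median of those without a symbol in at least 1 genotype (5.45 in WT and 5.44 in R6/2), which left 15328 probe sets and 14550 genes, of which 595 were merged by the median of their probe sets.

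Genes counted as higher or lower in the WT pads differed by at least 1 on the log2 scale, with no overlap between the *Ucp1*-high and *Ucp1*-low pads. Because *Ucp1* of these arrays made the split, no test was run on it. In the R6/2 pads, limma 3.58.1 in R 4.3.3 fitted a slope on *Ucp1*, adjusted by Benjamini-Hochberg over all 14549 other genes, and exact permutations over 720 pairings were run for *Elovl3* and *Cidea*. The limma fit was tested on simulated data. Other work used Python 3.11.15, scipy 1.17.1 and matplotlib 3.10.9.

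The pads, the lists and the rule for named genes were chosen with earlier results of these data known. The rule named the 3 markers, the 12 largest WT differences without overlap in each direction, the 10 smallest p in each direction of the R6/2 fit, and up to 4 members of each list without overlap (or 2 of high level). Genes named outside it, such as *Ppargc1a*, *Ebf2*, *B430010I23Rik* and those near the size limit or near a list mean, were chosen after their values were seen. Of the 22 lists, erythroid genes had 0 members above the level filter. Alternatives covered the level filter, probe sets, normalization, size limit, ranking, covariates and single pads. Subtracting the adipocyte mean, WT 4 alone and the left-out pads of the covariate fit were chosen after the data were seen.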

Additional observations from a re-analysis of the deposited data

Results flagged for a closer look

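In 94 groups of 6 pads (list means and leading genes, each in WT and in R6/2 pads), 1 had a pad far from the others by Dixon's ratio, against about 1 in 20 by chance. It was *Ucp1* in R6/2 replicate 4, at 8.44 on the log2 scale, with a gap of 0.712 of the whole range. The slopes on *Ucp1* in R6/2 pads lean on this pad. Without it r was 0.97 for *Elovl3* and 0.91 for *Cidea* (exact permutation p = 0.05 and 0.117, n = 5).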

How the results depend on the processing

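No paired analysis was possible because each comparison lies within 1 genotype. The WT counts of 50 higher and 30 lower genes became 217 and 150 at 1.5 times, 24 and 2 when the pads were ranked by 3 markers, 111 and 634 for WT 4 alone, and 2 and 123 after subtracting the mature adipocyte mean. Leaving out single WT pads gave 34 to 135 higher and 20 to 489 lower genes. Filters, probe sets and normalization gave 43 to 58 and 28 to 32. Respiratory chain genes without overlap, 34 of 66, became 17 after quantile normalization, 19 in the 3-marker ranking, 2 after the adipocyte subtraction and 34 to 60 without single pads. Thermogenic genes, 6 of 31, became 18, 1 and 6 to 24 in the last 3 of these. In the leading genes, 320 of 348 WT differences moved by less than 1 SD and 27 by more, and *5830428M24Rik* changed sign in the 3-marker ranking (0.065).

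In R6/2 pads limma called 0 genes in each direction under every alternative without the lymph node covariate. With it 270 and 299 were called, 7 and 3 of the 50 and 30, and 24 of the 30 had a negative slope, and with the muscle mean added 2 and 1 genes, with 22 of the 30 negative. Without single pads, over both fits, the ranges were 0 to 200 and 0 to 206 genes, 0 to 13 and 0 to 3 of the 50 and 30, and 1 to 30 of the 30 negative. With the lymph node covariate and without replicates 1 to 6 in turn, 96, 8, 0, 0, 88 and 200 genes were called with a positive slope, 71, 11, 0, 0, 89 and 206 with a negative one, and 23, 23, 26, 25, 22 and 22 of the 30 were negative. Without the lymph node covariate that last count, 2, became 1 with the highest probe set, 1 with the muscle covariate and 8 with the mean of 3 markers. Thermogenic genes called with the lymph node covariate, 15, numbered 0 to 12 without single pads and 0 with muscle added. Of 298 slopes of leading R6/2 genes under the alternatives, 278 kept their sign and side and 20 passed the threshold, each with the lymph node covariate. For *Elovl3*, r was 0.88 to 0.97 without single pads and 0.98 without the 2 farthest. For *Cidea* it was 0.80 to 0.91 and 0.96. At an exact permutation p of 0.05 or above these lost the threshold without replicate 1 or 4 for *Elovl3* and 1 to 5 for *Cidea*. Thermogenic-like genes numbered 4 by 12 arrays and 5 at a limit of 0.9, in place of 8. The causes of these shifts were not tested.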
